A study of Mus musculus with 8 samples.

Results

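The growth hormone and IGF1 axis of the liver was described through 10 genes: Ghr, Stat5a, Stat5b, Socs2, Cish, Bcl6, Igf1, Igfals, Igfbp2 and Igfbp3. They were listed by name for their known place in the pathway, with earlier results of these data known, and each matched 1 Ensembl gene of the 52636 in the count tables. All 10 passed the filter on low counts, so that none was left out of the test. Gene coordinates are those of GENCODE M21 on GRCm38 and span the whole gene with its introns.

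The livers came from 8 male C57BL/6J mice of wild-type genotype, all kept for 24 weeks on the MASH diet, which is rich in fat, fructose and cholesterol. Before the diet, 4 mice received AAV8-TBG-GFP (mice 303, 311, 314 and 315) and 4 received AAV8-TBG-AGXT (mice 308, 309, 316 and 319). AAV8 is an adeno-associated virus that reaches the liver well, and the TBG promoter is active in hepatocytes, so that the design directs GFP or human AGXT to these cells. AGXT is the peroxisomal enzyme that turns glyoxylate into glycine, and the comparison asks what its overexpression changed in diet-fed liver. Every mouse gave 1 poly(A) library of whole liver, and no group on a standard diet was analysed here. The p-values below measure the spread between these 8 mice.

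Growth hormone from the pituitary binds its receptor on hepatocytes, which activates the kinase JAK2 and, through it, the transcription factors STAT5A and STAT5B. In the liver these turn on Igf1 and Igfals, whose products circulate together with an IGF binding protein, and also Socs2 and Cish, whose products damp the signal. The male pattern of growth hormone release, in pulses, sets the expression of many sex-biased liver genes in rodents.

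Read pairs counted on genes ranged from 17095433 to 28780140 per library and made up 56.3% to 69.1% of all tallied pairs, lowest in mouse 308. Expression is given as CPM, which are read pairs of a gene scaled to the library's total and its TMM factor. The endogenous Agxt gene, which is mouse and not the human transgene, had 148, 179.9, 153 and 175 CPM in the AAV8-GFP mice and 405, 201, 243 and 371 CPM in the AAV8-AGXT mice, each in the order of numbers given above, which is kept throughout. Reads of the human sequence could in part map to it, and their share was not tested. The 10 hepatocyte markers, Alb, Apoa1, Hnf4a and Cps1 among them, summed to 48510 to 58905 CPM in AAV8-GFP mice and 61068 to 84026 CPM in AAV8-AGXT mice, all 10 with a positive difference. The 6 cholangiocyte markers summed to 225 to 676 and 74.3 to 273.8 CPM, the 8 stellate cell and fibroblast markers to 489.8 to 842 and 246 to 576 CPM, and the 8 lymphocyte markers to 13.2 to 18.7 and 7.15 to 13.3 CPM. The 10 Kupffer cell and macrophage markers summed to 613 to 1045 and 283 to 969 CPM, and the 8 endothelial markers to 162 to 259 and 168 to 358 CPM. The summed ranges overlapped between the groups for each of these 5 lists, and not for hepatocyte markers, and no marker of any of these lists was at 0 in any mouse. Differences were positive for all 8 endothelial markers and negative for all 6 cholangiocyte markers. They were negative for 6 of the 8 stellate cell and fibroblast, 6 of the 10 Kupffer cell and macrophage and 7 of the 8 lymphocyte markers. EdgeR called 2 of the 10 hepatocyte markers higher, Cps1 and Hpd (adjusted p of 0.0279 and 0.0336), beside 2.45% of all genes. It called 1 of the 8 stellate cell and fibroblast markers lower, the smooth muscle actin gene Acta2 (adjusted p of 0.0427), beside 1.90% of all genes. Cps1, Hpd and Acta2 were named after their values were seen. In whole liver, fewer cells of a type and less RNA per cell cannot be told apart.

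Of the 10 genes, Igfals rose and Stat5a fell in AAV8-AGXT mice when tested across all genes with edgeR (quasi-likelihood, Benjamini-Hochberg), and the other 8 did not pass. Across all 15248 genes tested, 2.45% were called higher and 1.90% lower. The same 2 genes were the ones whose groups of mice did not overlap, against 8.93% of all genes without overlap and higher, and 7.63% without overlap and lower. Differences were positive for 8 of the 10 genes (7974 of all 15248 were) and negative for Stat5a and Stat5b. The median log2 fold change was 0.41, beside 0.018 over all genes tested and 0.46 over the 10 hepatocyte markers. Scaled to these markers, a choice made after seeing the data, the axis genes had a median of -0.064 with 4 positive, beside -0.50 over all genes. An unadjusted p under 0.05 was reached by 5 of the 10 genes and by 3988 of the 15248. With DESeq2, which calls more genes in these data (6.59% higher and 6.38% lower of 16204), Ghr and Igfbp2 were called higher as well. The split of calls over all genes depends on the scaling: edgeR called 374 higher and 290 lower with TMM, 254 and 298 with upper-quartile factors, and 144 and 857 with total counts, which moved the median log2 fold change of all genes to -0.22.

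**Figure D1:**
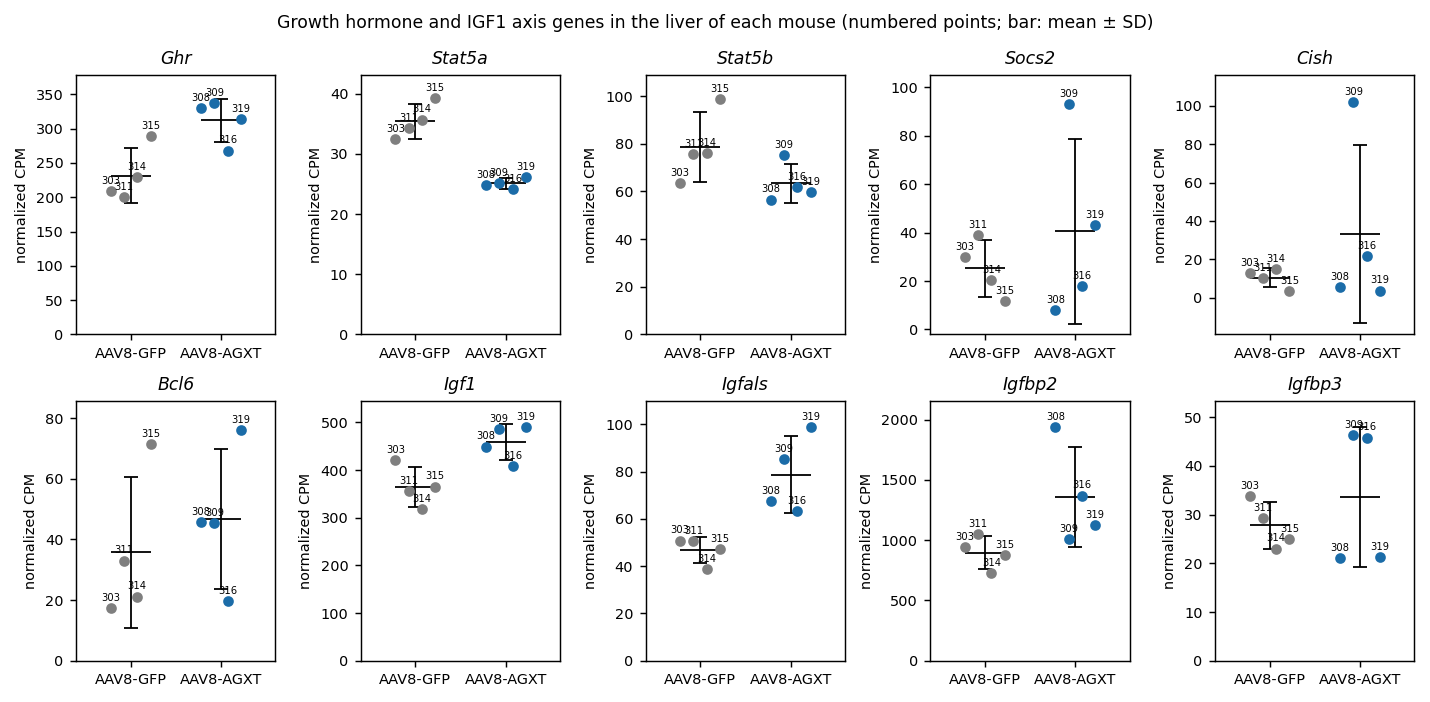
TMM-normalised CPM (vertical axes, linear, a separate scale for each panel) of the 10 genes in the liver of each AAV8-GFP and AAV8-AGXT mouse, with each point numbered by its animal and the bar giving mean ± SD of 4 mice. The groups are separate for Stat5a and Igfals, and mouse 309 stands above all others for Cish and Socs2.

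Expression differed widely between the genes. Per kilobase of annotated exon, Igfbp2 was the highest, at 485 ± 73.4 CPM per kb in AAV8-GFP mice and 736 ± 223 in AAV8-AGXT mice (SD, n = 4 each). Igf1 followed at 36.8 ± 4.26 and 46.3 ± 3.81 CPM per kb, then Ghr at 25.6 ± 4.41 and 34.5 ± 3.43. Igfals (14.8 ± 1.79) and Stat5b (14.2 ± 2.66) lay within 1 SD of each other in AAV8-GFP mice but not in AAV8-AGXT mice, where Igfals had 24.9 ± 5.20 and Stat5b 11.4 ± 1.49 CPM per kb. Lower still were Igfbp3 (8.88 ± 1.54 in AAV8-GFP mice), Bcl6 (5.33 ± 3.70), Stat5a (4.96 ± 0.401), Socs2 (2.65 ± 1.24) and Cish (1.61 ± 0.779) CPM per kb. Of these neighbours in order, Igfbp3 and Bcl6, Bcl6 and Stat5a, and Socs2 and Cish did not differ beyond their spread. In AAV8-AGXT mice Stat5b and Igfbp3 (10.8 ± 4.58) were also within 1 SD of each other, and Cish, at 5.16 ± 7.25 CPM per kb, could not be ranked. A binding protein and the secreted factor thus outranked the receptor, and the receptor outranked its transcription factors and their inhibitors.

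Ghr (ENSMUSG00000055737, chr15:3317760-3583492) encodes the growth hormone receptor and, by processing of the same protein, a binding protein in blood. Its level was 208, 200.4, 229 and 289 CPM in the AAV8-GFP mice and 330.2, 337, 268 and 313 CPM in the AAV8-AGXT mice. Mouse 315, the highest of AAV8-GFP, lay above mouse 316, the lowest of AAV8-AGXT, and the other 6 mice were apart by group. The means were 232 ± 39.9 and 312 ± 31.1 CPM (SD, n = 4 each), and the log2 fold change of 0.43 ± 0.15 (standard error, as for all log2 fold changes) did not pass (adjusted p = 0.103, edgeR; exact permutation p = 0.0571, two-sided). DESeq2 gave an adjusted p of 0.0406, and edgeR without mouse 315 gave a log2 fold change of 0.56 with an adjusted p of 0.0509.

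Stat5b (ENSMUSG00000020919, chr11:100780731-100850724) and Stat5a (ENSMUSG00000004043, chr11:100859351-100885169) are close paralogs that lie next to each other, and STAT5B is the form known to carry most of the growth hormone signal in mouse liver. Stat5a had 32.4, 34.3, 35.7 and 39.2 CPM in the AAV8-GFP mice and 24.9, 25.1, 24.1 and 26.2 CPM in the AAV8-AGXT mice. Every AAV8-AGXT mouse was below every AAV8-GFP mouse, and the AAV8-AGXT mice were nearly level with each other. With means of 35.4 ± 2.86 and 25.1 ± 0.851 CPM (SD, n = 4 each), Stat5a fell in AAV8-AGXT mice by a log2 fold change of -0.50 ± 0.094 (adjusted p = 0.0341, edgeR). An exact two-sided permutation test gave p = 0.0286, which is the smallest that 4 mice against 4 can give. The call was lost when mouse 311, 314, 308, 316 or 319 was left out (adjusted p from 0.0543 to 0.116, edgeR), while the log2 fold change stayed between -0.53 and -0.44 over all 8 such fits.

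Only 72 exonic bases of Stat5a, 1.01% of them, overlap another gene, which is Stat3 on the opposite strand. Stat3, the other STAT gene of the same stretch of chromosome 11, had a log2 fold change of 0.05 ± 0.26 (adjusted p = 0.931, edgeR). Stat5b had 63.6, 75.7, 76.0 and 98.8 CPM in the AAV8-GFP mice and 56.5, 75.4, 61.8 and 59.8 CPM in the AAV8-AGXT mice. Its groups overlapped through mouse 309, which was level with mice 311 and 314, and mouse 315 was the highest. The log2 fold change was -0.31 ± 0.15 (adjusted p = 0.215, edgeR; exact permutation p = 0.0571).

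The balance of the paralogs was read from each library by itself, as the share of Stat5b in the counts per kilobase of both genes. It was 71.6%, 74.0%, 73.3% and 76.4% in the AAV8-GFP mice and 74.6%, 79.4%, 76.7% and 74.6% in the AAV8-AGXT mice. Wilson 95% intervals of these shares, which cover counting error only, were from 2.72 to 4.70 percentage points wide. Groups overlapped, with means of 73.8 ± 2.0% and 76.3 ± 2.30% (SD, n = 4 each). The difference of 2.50 percentage points was not beyond the spread (two-sided exact permutation p = 0.143, 70 arrangements). Read pairs that map to both paralogs are left uncounted, and this share covers only those that tell them apart.

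The feedback inhibitors varied widely between mice of the same group. Cish (ENSMUSG00000032578, chr9:107296026-107302784) encodes the SH2 protein CIS, which competes for the receptor's STAT5 docking sites, and Socs2 (ENSMUSG00000020027, chr10:95385362-95417180) encodes a subunit of a ubiquitin ligase that acts on the growth hormone receptor. Both are classical STAT5 targets. STAT5 binds the palindrome TTCNNNGAA, which reads the same on both strands, and promoters from 250 bases before to 50 bases after each start in RefSeq (GRCm38.p6) were searched for it. At least 1 match was found in 8.30% of 32851 promoters, at least 2 in 0.457% and at least 3 in 0.0335%. Of the 10 genes 9 had an entry, with 16 promoters, and 5 of these promoters, of Cish, Igfals and Bcl6, held a match. A match describes the letters and not a binding site. The Cish promoter is shown for its pair of matches, in capitals, which begin at bases 1 and 12 counted from the start:
Cish, chr9:107296409-107296708, 5′ to 3′: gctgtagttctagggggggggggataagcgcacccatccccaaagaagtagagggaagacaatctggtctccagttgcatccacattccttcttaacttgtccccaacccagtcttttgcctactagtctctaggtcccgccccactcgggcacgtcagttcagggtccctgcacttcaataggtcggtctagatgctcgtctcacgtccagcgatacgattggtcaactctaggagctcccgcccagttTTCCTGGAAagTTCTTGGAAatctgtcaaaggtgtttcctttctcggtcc

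Cish had 12.9, 10.3, 14.7 and 3.31 CPM in the AAV8-GFP mice and 5.45, 102, 21.5 and 3.68 CPM in the AAV8-AGXT mice. Mouse 309 was far above the other 7, and the lowest values of both groups were alike. The highest mouse exceeded the lowest 4.45-fold within AAV8-GFP and 27.7-fold within AAV8-AGXT. The log2 fold change of 1.68 ± 0.91 did not pass (adjusted p = 0.274, edgeR), and without mouse 309 it was -0.025. Of its exonic bases 740, or 11.5%, overlap Gm17040 and Gm17041 on the opposite strand, so that its counts carry that uncertainty.

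Socs2 had 29.9, 39.0, 20.4 and 11.6 CPM in the AAV8-GFP mice and 7.87, 92.9, 17.9 and 43.1 CPM in the AAV8-AGXT mice. The lowest and the highest of all 8 mice, 308 and 309, were both AAV8-AGXT. Its log2 fold change of 0.68 ± 0.64 (adjusted p = 0.533, edgeR) became -0.15 without mouse 309. Mouse 309 was thus the highest for both inhibitors, and mouse 315 was the lowest AAV8-GFP mouse for both.

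Bcl6 (ENSMUSG00000022508, chr16:23965052-23988852) encodes a transcriptional repressor that is known to occupy many STAT5 sites in mouse liver, in opposition to STAT5. One of its RefSeq promoters held 3 matches of the palindrome, as 11 of all promoters did, and is shown for them, in capitals, at 168, 122 and 88 bases before the start:
Bcl6, chr16:23981234-23981533, minus strand, 5′ to 3′: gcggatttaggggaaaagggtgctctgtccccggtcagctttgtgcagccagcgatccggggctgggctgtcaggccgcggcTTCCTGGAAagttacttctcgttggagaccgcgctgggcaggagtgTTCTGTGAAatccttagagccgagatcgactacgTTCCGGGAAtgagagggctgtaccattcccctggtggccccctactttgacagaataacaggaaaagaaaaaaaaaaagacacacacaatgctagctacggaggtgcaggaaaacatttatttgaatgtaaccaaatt

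Its level was 17.3, 33.0, 21.1 and 71.5 CPM in the AAV8-GFP mice and 45.7, 45.5, 19.8 and 76.1 CPM in the AAV8-AGXT mice. Mouse 315 and mouse 319 were the highest of their groups and close to each other, and mice 303, 314 and 316 were the lowest. With a log2 fold change of 0.39 ± 0.48, Bcl6 did not pass (adjusted p = 0.642, edgeR).

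**Figure D2:**
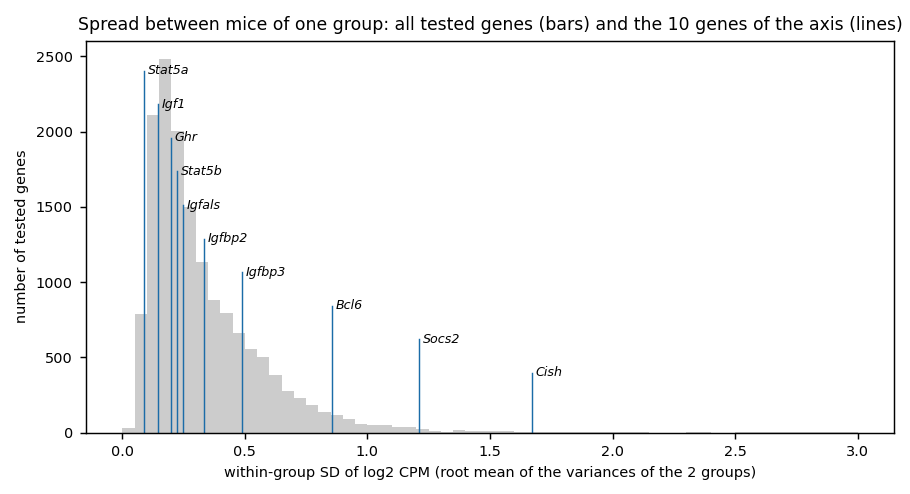
Within-group SD of log2 CPM (horizontal axis) over the 15248 genes tested, as a histogram of genes (vertical axis), with the 10 axis genes marked by lines whose height carries no value. Stat5a lies at 0.0882, under the median of 0.256, and Bcl6, Socs2 and Cish lie at 0.856, 1.21 and 1.67, in the upper tail.

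The 10 genes spanned nearly the whole range of variation between mice. The within-group SD of log2 CPM was 0.0882 for Stat5a, at percentile 3.22 of all genes tested, whereas the median gene had 0.256. It was 0.145 for Igf1, 0.198 for Ghr, 0.225 for Stat5b and 0.248 for Igfals, each below that median. Igfbp2 (0.333) and Igfbp3 (0.487) were above it. Bcl6 (0.856) was at percentile 96.3, Socs2 (1.21) at 99.0 and Cish (1.67) at 99.7. The receptor, the STAT5 genes, Igf1 and Igfals were thus more even between mice than the binding proteins, and these more even than the inhibitors and the repressor, which have the widest standard errors.

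**Figure D3:**
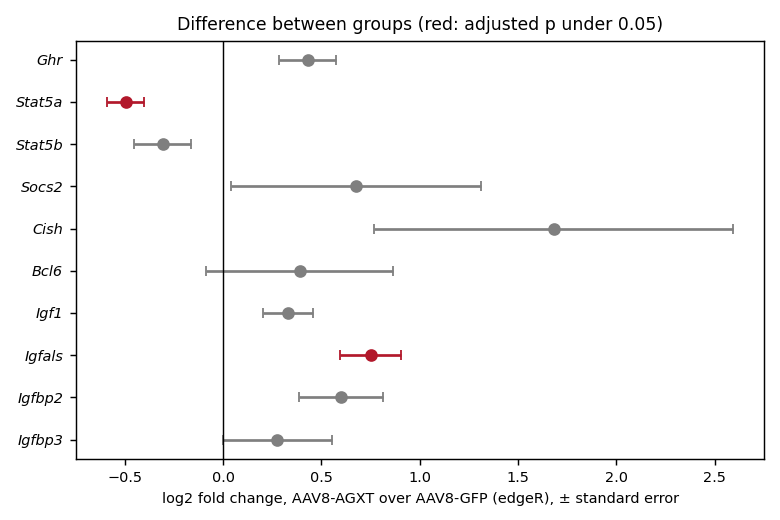
Log2 fold change of AAV8-AGXT over AAV8-GFP (horizontal axis) of the 10 genes from edgeR, with bars of 1 standard error and genes with an adjusted p under 0.05 in red. Stat5a at -0.50 and Igfals at 0.75 are red, and Cish has the largest value, 1.68, with a standard error of 0.91.

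Igf1 (ENSMUSG00000020053, chr10:87858265-87937042) encodes insulin-like growth factor 1, which the liver supplies to the blood. Its level was 420.3, 356, 318 and 365 CPM in the AAV8-GFP mice and 449.5, 485, 409 and 489.9 CPM in the AAV8-AGXT mice. Mouse 303 was above mouse 316, and all other mice were apart by group. Means were 365 ± 42.1 and 458 ± 37.7 CPM (SD, n = 4 each), and the log2 fold change of 0.33 ± 0.13 did not pass (adjusted p = 0.141, edgeR; exact permutation p = 0.0571).

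Igfals (ENSMUSG00000046070, chr17:24865997-24882010) encodes the acid-labile subunit, the hepatocyte protein that joins IGF1 and a binding protein into the long-lived complex of the blood. It had 50.8, 50.7, 38.7 and 47.1 CPM in the AAV8-GFP mice and 67.7, 85.4, 63.1 and 98.8 CPM in the AAV8-AGXT mice. Every AAV8-AGXT mouse was above every AAV8-GFP mouse, and mice 319 and 309 were the highest. With means of 46.8 ± 5.66 and 78.7 ± 16.5 CPM (SD, n = 4 each), Igfals rose by a log2 fold change of 0.75 ± 0.16 (adjusted p = 0.0374, edgeR; exact permutation p = 0.0286). DESeq2 gave an adjusted p of 0.00161. The call was lost when any mouse but 316 was left out (adjusted p from 0.0522 to 0.135, edgeR), with log2 fold changes from 0.63 to 0.85 over the 8 fits. Scaling to total counts gave 0.51 (adjusted p = 0.0730, edgeR).

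Hepatocyte markers were higher in the same mice (values above), and when libraries were scaled to these 10 markers, a choice made after seeing the data, Igfals had a log2 fold change of 0.23 (adjusted p = 0.303, edgeR) and Stat5a one of -1.0 (adjusted p = 0.00444, edgeR). This scaling moved the median of all genes to -0.50, and Stat5b, at -0.80 (adjusted p = 0.00498, edgeR), was called lower, as were 7209 of all genes tested. On that scale Ghr, Igf1, Igfbp3 and Bcl6 turned to -0.071, -0.20, -0.24 and -0.056.

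**Figure D4:**
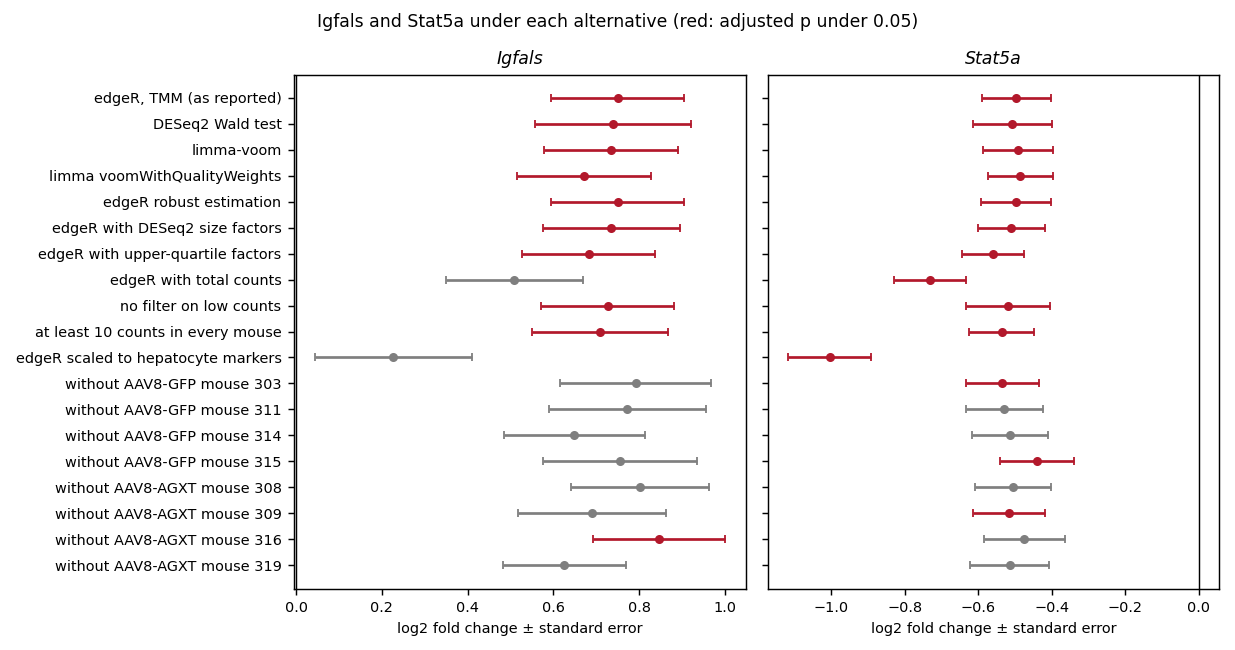
Log2 fold change of AAV8-AGXT over AAV8-GFP ± standard error (horizontal axes) of Igfals (left) and Stat5a (right) under the reported fit and each alternative (vertical axis), with adjusted p under 0.05 in red. Stat5a stays between -1.0 and -0.44 and Igfals between 0.23 and 0.85, and most fits with a mouse left out are not red.

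Igfals has several starts in RefSeq. The one with a match nearest to its start is shown, with the match 58 bases before the start in capitals:
Igfals, chr17:24877981-24878280, 5′ to 3′: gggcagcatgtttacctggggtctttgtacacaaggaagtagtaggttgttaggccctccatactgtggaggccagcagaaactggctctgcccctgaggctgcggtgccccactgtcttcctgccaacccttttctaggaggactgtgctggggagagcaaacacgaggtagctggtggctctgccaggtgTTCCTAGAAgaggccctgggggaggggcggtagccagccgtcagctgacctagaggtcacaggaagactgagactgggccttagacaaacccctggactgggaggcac

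Igfbp2 (ENSMUSG00000039323, chr1:72824503-72852474) encodes a binding protein that is made by hepatocytes and binds IGF1 and IGF2. Values were 940.3, 1048, 724 and 874 CPM in the AAV8-GFP mice and 1935, 1008, 1369.9 and 1123 CPM in the AAV8-AGXT mice. Mouse 308 was the highest, and mouse 309 lay below mouse 311, so that the groups overlapped. The log2 fold change of 0.60 ± 0.22 did not pass (adjusted p = 0.119, edgeR), although DESeq2 gave an adjusted p of 0.0486. Without mouse 308 it was 0.37 (adjusted p = 0.250, edgeR).

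Igfbp3 (ENSMUSG00000020427, chr11:7206086-7213923) encodes the main carrier of IGF1 in blood, which rodent liver makes largely in cells other than hepatocytes. It had 33.9, 29.2, 23 and 25.1 CPM in the AAV8-GFP mice and 21.1, 46.3, 45.8 and 21.3 CPM in the AAV8-AGXT mice. Mice 309 and 316 were above all AAV8-GFP mice, and mice 308 and 319 were below all of them. The log2 fold change was 0.28 ± 0.28 (adjusted p = 0.562, edgeR).

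The mice did not keep 1 order over the 10 genes. Mouse 309 was the highest AAV8-AGXT mouse for 5 of them and mouse 316 the lowest for 5, while mouse 319 was the highest for 4. Among AAV8-GFP mice, mouse 314 was the lowest for 4 and mouse 315 the highest for 4.

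Genes whose pattern over the 8 mice was most like that of Igf1 were sought among 13212 protein-coding genes tested, by the mean absolute difference of z-scored log2 CPM. The nearest were Prelid3b (0.113), Hectd4 (0.188) and D630045J12Rik (0.190), and the median gene was at 1.07. Prelid3b encodes a mitochondrial lipid transfer protein of the PRELI family. Its CPM were 36.5, 34.4, 32.6, 34.8, 38.4, 39.1, 36.0 and 38.6 in the order of mice above. Within the axis, Igfals was the nearest to Igf1 (0.269), Ghr followed (0.584) and Stat5a was the farthest (1.64). Since this measure includes the difference between the groups, these values describe likeness and carry no test.

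Other genes of the pathway were counted from fixed lists. A list of 17 held genes that carry or damp the receptor's signal (Jak2, Socs1, Socs3, Ptpn1, Ptpn2 and others) and genes of other receptors (Prlr, Lepr and Nr3c1). All 17 were tested and edgeR called none in either direction, although 4 had an unadjusted p under 0.05 (3988 of 15248 genes did). DESeq2 called 1 of these 17 genes higher (6.59% of all genes), which was Prlr, identified after its values were seen. Their median log2 fold change was -0.06, with 8 positive and 9 negative. The 2 most abundant by mean CPM were Stat3, given above, and Sh2b1, an adaptor of JAK2, with a log2 fold change of 0.05 ± 0.12 (adjusted p = 0.805, edgeR). Groups did not overlap for 3 of the 17, all lower in AAV8-AGXT mice (7.63% of all genes were) and named after their values were seen. These were Socs1 (log2 fold change -0.86 ± 0.35, adjusted p = 0.157, edgeR), an inhibitor of JAK kinases, Ptpn2 (-0.28 ± 0.11, adjusted p = 0.156), a tyrosine phosphatase of JAK and STAT proteins, and Sirpa (-0.96 ± 0.36, adjusted p = 0.13), a receptor abundant on macrophages.

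Of 18 further IGF ligands, receptors, binding proteins and their partners, 13 were tested and edgeR called none, with 5 at an unadjusted p under 0.05 (3988 of the 15248 genes tested), while DESeq2 called 2 higher and 2 lower (6.59% and 6.38% of all genes). The median log2 fold change was -0.19, with 4 positive and 9 negative. Igfbp4, a binding protein abundant in liver, had 1153, 1129, 1218 and 1344 CPM in the AAV8-GFP mice and 1855, 1554, 1658 and 1913 CPM in the AAV8-AGXT mice. All AAV8-AGXT mice were above all AAV8-GFP mice, with a log2 fold change of 0.53 ± 0.13 that missed the threshold (adjusted p = 0.0537, edgeR). Igfbp4 was called in 4 of 18 alternatives, DESeq2 among them (adjusted p = 0.000188), and was at 0.015 when scaled to hepatocyte markers. Igfbp1, the binding protein that insulin lowers, had a log2 fold change of -0.02 ± 0.25 (adjusted p = 0.977, edgeR), with mouse 308 the highest at 418 CPM. Named after their values were seen, Insr, the insulin receptor, was higher without overlap (0.37 ± 0.11, adjusted p = 0.0796, edgeR; -0.14 when scaled to hepatocyte markers) and Igf2bp2, an RNA-binding protein of Igf2 and other transcripts, was lower without overlap (-0.80 ± 0.25, adjusted p = 0.0907, edgeR).

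The liver genes known to be higher in males through pulsatile growth hormone were a list of 21, all tested. In AAV8-AGXT mice edgeR called 5 higher (2.45% of all genes were) and none lower, 19 had a positive log2 fold change, and the median was 1.16 beside 0.018 over all genes. Groups did not overlap for 10 that were higher and 1 that was lower, beside 8.93% and 7.63% of all genes. Moxd1 and Hsd3b5, whose calls are not used as support (below), are counted in the 5, the 19 and the 10. Hsd3b5, a steroid dehydrogenase, had 2.34, 0.826, 0.185 and 5.91 CPM in the AAV8-GFP mice and 46.7, 31.5, 16.7 and 27.2 CPM in the AAV8-AGXT mice (log2 fold change 3.73 ± 0.71, adjusted p = 0.0341, edgeR). It had 60, 27, 4 and 134 read pairs in the AAV8-GFP mice and 677, 525, 325 and 576 in the AAV8-AGXT mice. It passed the filter on low counts only through the latter, where it was high, and its call and separation are not used as support. Cyp7b1, an oxysterol hydroxylase, had 131, 76.7, 34.8 and 119.6 CPM in the former and 376, 289.6, 183 and 333 CPM in the latter mice (1.71 ± 0.38, adjusted p = 0.0425, edgeR). Slco1a1, an organic anion transporter, had 61.8, 40.6, 21.9 and 91.6 CPM in the former and 269.7, 220.2, 121 and 132 CPM in the latter mice (1.78 ± 0.41, adjusted p = 0.0456, edgeR). The groups were separate for each of these genes, and mouse 314 was the lowest for all of them.

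Moxd1, related to the monooxygenase that makes noradrenaline, had 3, 0, 0 and 1 read pairs in the AAV8-GFP mice and 76, 20, 20 and 200 in the AAV8-AGXT mice. It passed the filter on low counts through the AAV8-AGXT mice alone and so had to differ, and its call and its fitted fold change, which depends on the prior count, are not used as support. With at least 10 counts required in every mouse it was not tested. Serpina1e, of the α1-antitrypsin family and named after its values were seen, was the remaining gene that rose (2.26 ± 0.53, adjusted p = 0.0461, edgeR). Its near-identical copies make its counts uncertain, as they do for the Mup and Cyp4a12 genes of the list. Mup1, Mup3, Mup7, Mup21 and Serpina1e, which share this uncertainty, are among the 10 genes that were higher without overlap. The 2 genes with negative values were Mup20, a male pheromone protein (-0.63 ± 0.27, adjusted p = 0.176, edgeR), and Ihh, a hedgehog ligand (-1.02 ± 0.30, adjusted p = 0.0758, edgeR), both also named after their values were seen.

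Without mouse 311, 314 or 319 edgeR called none of the 21 genes, without 308 it called 1, without 303 it called 2 and without 309 or 316 it called 3. Over all genes it called 2, 11 and 12 higher without mouse 311, 314 and 319, and 86 without 308. Without mouse 303 it called 114 of all genes higher, without 309 it called 379 and without 316 it called 226. Mouse 314 was the lowest AAV8-GFP mouse for 20 of the 21 genes, and for Moxd1 it shared the value of 0 with mouse 311. Mouse 308 was the highest AAV8-AGXT mouse for 16. Mouse 314 was the lowest of AAV8-GFP for 2 of 10 hepatocyte markers and for 4 of the 10 axis genes. Scaled to the hepatocyte markers, edgeR called 8 of the 21 genes higher and 2 lower, with a median log2 fold change of 0.58 beside -0.50 over all genes. On that scale 109 of all genes tested were called higher and 7209 lower.

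**Figure D5:**
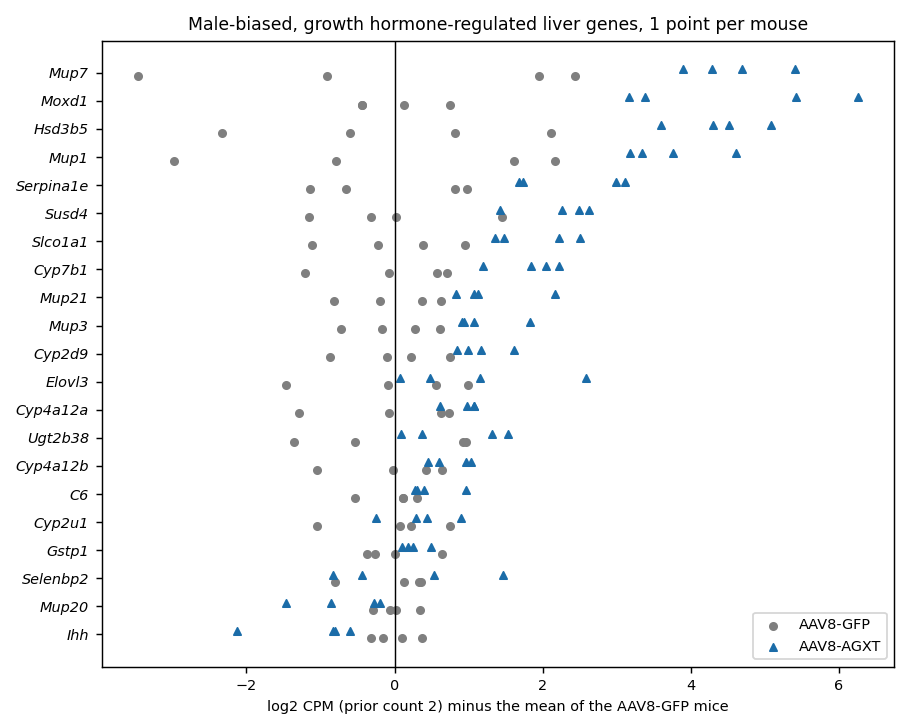
Log2 CPM of each of the 21 male-biased genes (vertical axis) in each mouse, minus the mean of the AAV8-GFP mice (horizontal axis), with circles for AAV8-GFP and triangles for AAV8-AGXT mice. For 10 genes, Moxd1 and Hsd3b5 among them, all triangles lie to the right of all circles, and for Ihh all lie to the left.

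For the female-biased genes 9 of 21 had enough counts to be tested, and edgeR called 1 higher and 1 lower, beside 2.45% and 1.90% of all genes. Groups did not overlap for 2 that were higher, Cyp2c69 and Cyp2c40, and 2 that were lower, Cyp2a4 and Ntrk2, beside 8.93% and 7.63% of all genes. Cyp2c69 (0.547, 0.214, 0 and 0.441 CPM with GFP, 8.56, 0.901, 0.616 and 3.59 CPM with AGXT) and Ntrk2 (log2 fold change -0.73 ± 0.42, adjusted p = 0.292, edgeR) were named after their values were seen. With 0 to 14 read pairs in AAV8-GFP mice and 12 to 124 in AAV8-AGXT mice, Cyp2c69 passed the filter on low counts through the latter. The separation of Cyp2c69, where the AAV8-AGXT mice were high, and that of Cyp2a4 are not used as support. Cyp2c40 had 1.52, 0.582, 0.60 and 1.01 CPM in the AAV8-GFP mice and 7.94, 2.40, 2.31 and 5.80 CPM in the AAV8-AGXT mice (log2 fold change 2.30 ± 0.48, adjusted p = 0.0376, edgeR). Cyp2a4, a steroid hydroxylase, had 1.29, 2.48, 2.77 and 1.90 CPM in the former and 0.207, 0.361, 0.873 and 0.142 CPM in the latter mice. With 33, 81, 60 and 43 read pairs against 3, 6, 17 and 3, it passed the filter on low counts only through the AAV8-GFP mice, where it was high, and its call is not used as support. Cyp2c40 and Cyp2a4 both belong to cytochrome P450 families with near-identical copies. The median over the 9 was 0.32.

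Lipid genes known to rise when hepatocytes lack STAT5 (Cd36, Pparg, Cidec, Mogat1, Vldlr, Lpl and Plin2) were all 7 tested and edgeR called none, with 1 at an unadjusted p under 0.05 and 1 called lower by DESeq2 (3988 of 15248 and 6.38% over all genes). The median log2 fold change was -0.02. Plin2, the coat protein of hepatocyte lipid droplets, had 0.26 ± 0.20 (adjusted p = 0.430, edgeR), and Cidec, which fuses droplets, had 0.23 ± 0.15 (adjusted p = 0.356, edgeR). The gene at an unadjusted p under 0.05 and called lower by DESeq2 was Lpl, named after its values were seen. Its log2 fold change was -0.98 ± 0.29 (adjusted p = 0.0756, edgeR, and 0.0118, DESeq2), and its groups overlapped.

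Inflammation is known to make liver resistant to growth hormone, and 10 of 11 cytokine and acute phase genes were tested. EdgeR called none, with 2 at an unadjusted p under 0.05 and DESeq2 calling 0 higher and 1 lower (3988 of 15248, 6.59% and 6.38% over all genes). These 2, named after their values were seen, were Tnf (log2 fold change -1.47 ± 0.46, adjusted p = 0.0864, edgeR) and Il6ra (0.76 ± 0.27, adjusted p = 0.118, edgeR). Tnf was the 1 called lower by DESeq2 (adjusted p = 0.0311). With 18 to 90 read pairs in AAV8-GFP mice and 4 to 17 in AAV8-AGXT mice, it passed the filter on low counts through the former. Its call is not used as support. Il6ra was higher without overlap (8.93% of all genes were). Fgg, a fibrinogen chain, had a log2 fold change of 0.16 ± 0.30 (adjusted p = 0.773, edgeR). Saa1, serum amyloid A, had 489, 489, 699 and 390.1 CPM in the AAV8-GFP mice and 108, 210.1, 320.1 and 3221 CPM in the AAV8-AGXT mice. Mouse 319 had the highest value of its group for all 10 genes, and the other 3 AAV8-AGXT mice were below every AAV8-GFP mouse for Saa1. Of the axis genes, Igf1, Igfals, Bcl6 and Stat5a had their highest AAV8-AGXT value in mouse 319 and Cish its lowest.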

How the data were processed

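Liver RNA of 8 mice was sequenced by the authors as stranded mRNA libraries. Per the submitters' processing notes, the tools were FastQC 0.11.8, Trimmomatic 0.35, HISAT2 2.1.0.13 and HTSeq, on GRCm38. The deposited values are raw counts of read pairs per Ensembl gene, with no normalisation, checked to be whole numbers. Strand option and overlap mode of the counting are not given in the sources used here, so that overlapping genes are uncertain. HTSeq's tallies of pairs on no gene were left out of library sizes, so that 56.3% to 69.1% of tallied pairs entered. Of 52636 genes, 52489 were matched by identifier to GENCODE M21 on GRCm38 and 147 were not.

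Groups were taken from the treatment in the sample labels. Counts were analysed in R 4.3.3 with edgeR 4.0.16 (filterByExpr, TMM, quasi-likelihood test, Benjamini-Hochberg adjustment over the 15248 genes kept), with calls at an adjusted p under 0.05. Library sizes for CPM included the TMM factor, and log2 CPM for spread and likeness used a prior count of 2. Lengths were the union of annotated exons. The fit was tested on simulated data with known changes. At this depth the mice themselves vary more (common biological coefficient of variation 23.3%) than counting error does, except for genes with few reads.

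Alternatives were DESeq2 1.42.0, limma 3.58.1 (voom with and without quality weights), robust estimation, other size factors, other filters, each mouse left out in turn and scaling to 10 hepatocyte markers. The members and lists were chosen with earlier results of these data known. Named were the 10 axis genes, Agxt and, from each list, up to 4 called genes with the smallest p or, with fewer than 2 called, the 2 with the highest mean CPM, and the 3 genes most like Igf1. Other genes are said to be named after their values were seen, and this holds too for Cps1, Hpd and Acta2.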

Additional observations from a re-analysis of the deposited data

How the results depend on the processing

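No paired analysis was possible because the animal numbers in the labels are not shared between the groups. Against 374 genes called higher and 290 lower, DESeq2 called 1068 and 1034, voom with quality weights 804 and 606, total counts 144 and 857, and scaling to hepatocyte markers, chosen after seeing the data, 109 and 7209. With a mouse left out, edgeR called 2 to 379 genes higher and 0 to 325 lower, with the fewest without mouse 311. Of the 10 axis genes, those called higher numbered 3 with DESeq2, 0 with total counts and 0 with hepatocyte markers, where 2, Stat5a and Stat5b, were called lower. With a mouse left out there were 0 to 1 higher and 0 to 1 lower. Of the 21 male-biased genes, 11 were called higher with DESeq2, 11 with voom with quality weights and 11 without a filter on low counts, 8 with hepatocyte markers, 3 with robust estimation and 2 with at least 10 counts in every mouse. Under that last filter Hsd3b5 and Moxd1, with fewer than 10 read pairs in a mouse, were not tested. Over all genes, 415 were called higher without a filter, 393 with robust estimation and 280 with at least 10 counts in every mouse. With a mouse left out, 0 to 5 of the 21 male-biased genes were called higher. DESeq2 and voom with quality weights each called 1 of these genes lower, hepatocyte markers 2, and none was called lower with a mouse left out (0 to 0). The difference of the Stat5b share was 1.47 to 3.37 percentage points with a mouse left out and 2.81 from raw counts.

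Scaling to hepatocyte markers turned the log2 fold changes of Ghr (-0.071), Igf1 (-0.20), Igfbp3 (-0.24), Bcl6 (-0.056), Stat3 (-0.45), Sh2b1 (-0.48), Plin2 (-0.29), Cidec (-0.30), Fgg (-0.35) and Insr (-0.14). Total counts turned those of Stat3 (-0.19), Sh2b1 (-0.19), Cidec (-0.0047) and Fgg (-0.087), and upper-quartile factors those of Stat3 (-0.015) and Sh2b1 (-0.014). Socs2 was at -0.0019 with voom with quality weights, where Saa1 was at -0.17, and Saa1 was at -0.42 with limma-voom. With a mouse left out, values ran from -0.025 to 2.06 for Cish, -0.15 to 1.00 for Socs2, -0.13 to 0.36 for Fgg, -0.35 to 0.10 for Igfbp1, -1.28 to 1.26 for Saa1, -0.031 to 0.11 for Sh2b1 and -0.20 to 0.24 for Stat3. The cause of these changes was not tested.

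In all, 505 values of single genes kept their direction and their side of the threshold, 17 passed it under the alternative only, 89 no longer passed and 33 turned. With 4 mice a group, the genes that vary most between mice, Cish, Socs2 and Bcl6, have standard errors from 0.48 to 0.91 on the log2 scale, and the calls of Igfals and Stat5a were lost in 7 and 5 of the 8 fits with a mouse left out.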
